A study of Mus musculus with 9 samples.

Results

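Long intergenic non-coding RNAs (lincRNAs) are transcripts longer than the small RNA classes that lie between protein-coding genes and are not annotated as coding. Expressed lincRNAs were defined as the rows of the gene table with the biotype lincRNA and a mean of at least 30 normalised counts over the 9 samples, without the imprinted transcripts H19, Meg3, Rian, Mirg, Kcnq1ot1 and Airn. Of 1335 lincRNA rows, 247 reached this level, 3 of these (H19, Meg3 and Mirg) were left out by name, and 244 remained. Members were thus chosen by their mean level over all samples, and the difference between media was not used. The mean includes every medium, so a lincRNA could reach the limit through the medium in which it was high. Such lincRNAs are part of the counts of calls below.

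D3 cells, an established mouse embryonic stem cell (mESC) line kept here without feeder cells, were cultured for 24 h in 1 of 3 media, with 3 replicates per medium. Ground-state medium (GS) was serum-free and contained the MEK inhibitor PD0325901 (1 μM), the GSK-3 inhibitor CHIR99021 (3 μM) and leukemia inhibitory factor (LIF, 20 ng/mL). In differentiation medium (DM) the cells received 10% fetal bovine serum and no inhibitors. NO medium was DM with 250 μM of the nitric oxide donor DETA/NO. Thus GS and DM differed in several components at the same time, whereas DM and NO differed in the donor. All cells came from 1 line, and the series holds total RNA depleted of ribosomal RNA, so transcripts without a poly(A) tail were also sequenced.

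LincRNAs act in several ways. Some remain in the nucleus and build nuclear bodies or coat chromatin, as Malat1, Neat1 and Xist do. Others carry small nucleolar RNAs (snoRNAs) or microRNAs in their introns or exons and serve mainly as their precursors, and many begin near the promoter of a protein-coding gene. In mESC, a set of lincRNAs called pluripotency-associated transcripts (Platr) was described by its loss on differentiation.

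The media were compared on log2(value + 1) with limma across 18156 genes with a mean above 5, and all 244 lincRNAs were among these. A gene was called when its Benjamini-Hochberg adjusted p was under 0.05 and its change at least 2-fold, and a smaller change with an adjusted p under 0.05 is described as having passed the test only. Under an alternative, a result is said to be lost where its adjusted p was 0.05 or more, and a change that fell under 2-fold there is named as such. Total normalised counts per sample lay between 18290445 and 20508679, and the estimated number of assigned reads between 14307523 and 27061091, so that a value of 30 corresponded to between 22.7 and 42.8 reads. NO replicate 2 stood apart from the other libraries. The summed level of 8 embryonic stem cell markers was 47015 in it, against 76590 to 88937 in the other 8 samples. The summed level of 5 markers of 2-cell-like cells was 721, against 102 and 208 in the other NO replicates and 29 to 52 in GS and DM. All 5 of these passed the test as higher in NO vs GS, beside 13.4% of all genes, and Tcstv1 was listed at 0 in GS replicates 1 and 2. Markers of primitive endoderm summed to 661 in NO replicate 2, against 76 to 304 in the other samples, and those of trophoblast to 669, against 63 to 429. The markers of 1 list did not move together. Of the trophoblast markers, Hand1 was higher in NO vs GS (2.95 ± 0.66, adjusted p = 0.010) and Cdx2 lower (−3.03 ± 0.69, adjusted p = 0.011), while the sum rests mostly on Tfap2c. Fibroblast markers summed to 312 to 493 in all 9 samples, with Postn at 0 in 7 of them, but Col1a1 (1.49 ± 0.39, adjusted p = 0.021) and Thy1 (1.47 ± 0.18, adjusted p = 0.00068) were higher and Pdgfrb lower (−0.97 ± 0.24, adjusted p = 0.017) in NO vs GS. For named lincRNAs, results that were lost without NO replicate 2 are therefore given also without it. Values of coding genes and markers are from the main fit. The part of these other cell types in the results was not tested. In these bulk samples fewer cells of a type and less RNA per cell cannot be told apart.

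The median lincRNA had a mean of 63.1 normalised counts, and 157 of 244 lay under 100, while the median protein-coding gene of at least 30 had 576.3. The summed level of the 244 lincRNAs was 1.08 to 1.88% of all normalised counts in a sample, and 83.6% of that sum came from Gm26924 and Malat1. By annotation (GENCODE M21, GRCm38), 235 of 244 were found by identifier, and 157 of these were still classed as lincRNA, 45 as antisense and 8 as protein coding. At the threshold, Gm17249 with a mean of 30.6 was just inside, as was Gm26749 at the limit itself, and Gm12319 with a mean of 29.9 was just outside.

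Exon length was usable for 234 of the 244 lincRNAs. Among these, the highest mean level per kb of exon was that of Gm26924 (72395 normalised counts per kb), a transcript on chromosome 17 that overlaps an annotated ribosomal RNA gene on the other strand. It ranged from 85031 to 205229 normalised counts between samples, the 3 media overlapped, and no comparison passed the test. Malat1 followed with 13938 normalised counts per kb. Much lower levels per kb were those of Lncenc1 (1550), Snhg5 (841), Snhg6 (778), Epb41l4aos (755), Platr3 (585) and Snhg12 (485). Thus 4 of the 8 highest of these 234 were precursors of snoRNAs, 2 belonged to the transcripts tied to pluripotency, and the others were Gm26924 and Malat1. The snoRNA hosts Snhg1, Snhg4 and Snhg7 had no usable length and were not ranked.

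In DM compared to GS, 7 lincRNAs were called higher and 5 lower. Over all genes tested, 2.94% were called higher and 1.27% lower. In NO compared to GS, 10 lincRNAs were higher and 6 lower, beside 10.1% and 1.64% of all genes. In NO compared to DM, 11 were higher and 6 lower, beside 6.78% and 1.77%. In all, 4.92%, 6.56% and 6.97% of the lincRNAs were called in the 3 comparisons in this order, beside 4.62%, 11.4% and 8.62% of protein-coding genes with a mean of at least 30. Most of these calls were higher, 58.3%, 62.5% and 64.7% among lincRNAs and 70.2%, 85.9% and 77.1% among the protein-coding genes. Passing the test alone, without a minimum change, were 9 higher and 5 lower in DM vs GS (4.37% and 2.32% of all genes), 15 higher and 18 lower in NO vs GS (13.4% and 6.64%), and 18 higher and 11 lower in NO vs DM (9.01% and 5.24%). Across the 3 media, 47 lincRNAs (19.3%) differed by the moderated F test, beside 23.3% of all genes. In all, 30 lincRNAs were called and 51 passed the test in at least 1 comparison. The 3 comparisons share samples, and their counts are not independent. The median log2 fold change of the 244 lincRNAs was −0.11, −0.11 and −0.06 in these comparisons, where the medians over all genes were −0.00068, −0.016 and 0.0010.

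**Figure D1:**
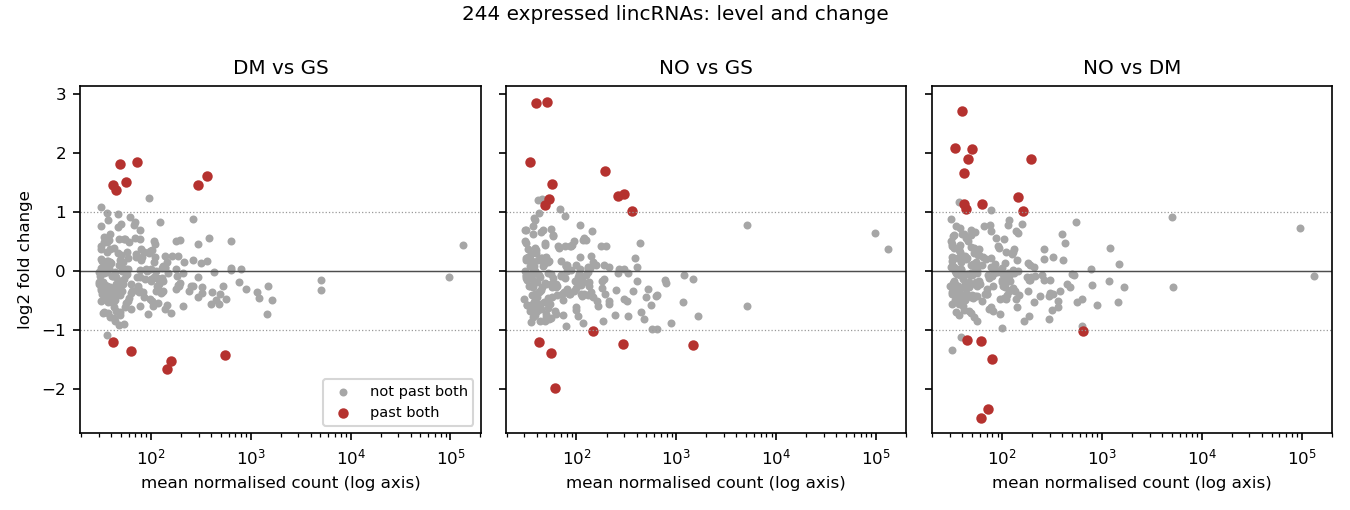
Mean normalised count over the 9 samples (log axis) against log2 fold change for each of the 244 lincRNAs, in 1 panel per comparison. Red points passed both thresholds, dotted lines mark a 2-fold change, and most red points have means under 1000.

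The split between higher and lower calls depended on the scaling. With quantile normalisation, 7 lincRNAs were higher and 25 lower in NO vs GS, and 6 were higher and 10 lower in NO vs DM. With samples scaled to equal totals, NO vs GS gave 12 higher and 5 lower and NO vs DM 13 higher and 4 lower. The median over all genes in NO vs GS moved from −0.016 to 0.093 with equal totals and to −0.11 with quantile normalisation. No lincRNA that passed the test changed its sign under any alternative.

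Platr7 was the lincRNA with the smallest adjusted p in DM vs GS. It is one of the Platr transcripts and lies on chromosome 10 (chr10:84547417-84553338, minus strand). Its normalised counts were 136, 204 and 197 in GS, 531, 510 and 597 in DM, and 393, 330 and 353 in NO. The 3 media did not overlap, with the highest values in DM. Platr7 rose in DM vs GS by a log2 fold change of 1.62 ± 0.18 (SE, adjusted p = 0.00037) and 1.02 ± 0.18 in NO vs GS (adjusted p = 0.0033). In NO vs DM it was −0.61 ± 0.18 with an adjusted p of 0.047, and 0.066 when replicates of the same number were treated as pairs and 0.12 without NO replicate 2. In NO vs GS the change of Platr7 was under 2-fold in 3 of 18 alternatives (quantile normalisation, without GS replicate 1 and without NO replicate 1), with an adjusted p under the threshold in each.

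On chromosome 1, 3 lincRNAs lie around Zfp281, which encodes a zinc finger transcription factor of stem cells. Platr23 starts 251 bases from the start of Zfp281 and points away from it, Gm19705 (chr1:136670769-136690804) starts 45868 bases from it on the strand of Zfp281, and Platr22 (chr1:136696211-136726142) begins 5406 bases after the end of Gm19705. Gm19705 had 124, 179 and 132 normalised counts under GS, 377, 420 and 391 in DM and 334, 406 and 336 in NO. Platr22 was lower, with 25, 27 and 22 in GS, 71, 78 and 68 in DM and 65, 92 and 59 in NO. In both, every DM and NO value lay above every GS value, while DM and NO overlapped. Gm19705 rose by a log2 fold change of 1.46 ± 0.18 in DM (adjusted p = 0.00063) and 1.31 ± 0.18 in NO (adjusted p = 0.0010) over GS. For Platr22 these were 1.52 ± 0.26 (adjusted p = 0.0043) and 1.49 ± 0.26 (adjusted p = 0.0027). Platr23 had 94, 96 and 98 in GS and 123, 130 and 119 in DM, a difference of 0.37 ± 0.19 on the log2 scale (adjusted p = 0.33). Zfp281 itself differed from GS by 0.08 ± 0.17 in DM (adjusted p = 0.85) and by 0.09 ± 0.17 in NO (adjusted p = 0.73).

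The promoter windows of Platr7 and Platr22 are shown because both transcripts were higher in DM and NO and both windows hold the E-box letters CACCTG. The windows are from RefSeq (GRCm38.p6), run from 250 bases before to 50 after the transcript start, and are written in the direction of transcription with CACCTG, or its reverse complement, in capitals.
Platr7, chr10:84553289-84553588, minus strand: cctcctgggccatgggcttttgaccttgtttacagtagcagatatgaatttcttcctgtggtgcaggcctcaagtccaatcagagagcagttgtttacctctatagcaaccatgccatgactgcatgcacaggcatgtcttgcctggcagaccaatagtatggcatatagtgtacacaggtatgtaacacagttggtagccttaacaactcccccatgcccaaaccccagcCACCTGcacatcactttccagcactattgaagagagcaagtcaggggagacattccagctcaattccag
Platr22, chr1:136695961-136696260, plus strand: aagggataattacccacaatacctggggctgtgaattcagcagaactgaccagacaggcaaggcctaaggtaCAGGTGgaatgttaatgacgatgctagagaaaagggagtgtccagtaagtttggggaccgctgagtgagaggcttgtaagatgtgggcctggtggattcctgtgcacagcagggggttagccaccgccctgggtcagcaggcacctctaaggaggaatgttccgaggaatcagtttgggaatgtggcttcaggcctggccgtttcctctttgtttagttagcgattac
The E-box letters begin 19 bases before the start in Platr7 and 178 before it in Platr22. A match of this kind is not a binding site, and 20.2% of all 32851 windows held the same letters on either strand. Gm19705, A730036I17Rik, 4930444M15Rik and Halr1 also passed the test as higher in DM and NO over GS, and their windows held no CACCTG on either strand. The RefSeq start of Gm19705 lies 12627 bases after the start given above and inside the gene, so its window does not cover that start.

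A further 4 lincRNAs were called higher in DM vs GS. A730036I17Rik on chromosome 2 had 15, 27 and 22 normalised counts under GS, 77, 82 and 70 in DM and 67, 38 and 39 in NO, and its log2 fold change was 1.83 ± 0.31 in DM (adjusted p = 0.0048) and 1.12 ± 0.31 in NO (adjusted p = 0.028). With quantile normalisation the value in NO was 0.67 (adjusted p = 0.20), and the adjusted p in NO vs GS ranged from 0.019 to 0.20 over the alternatives. Halr1 on chromosome 6 had 21, 18 and 24 in GS, 49, 69 and 62 in DM and 37, 32 and 65 in NO. The log2 fold change was 1.47 ± 0.32 in DM (adjusted p = 0.018). In NO it was 1.00 ± 0.32 (adjusted p = 0.048, under the 2-fold limit), and 13 of 17 alternatives lost it. In 1700057H21Rik and D830044D21Rik every DM value lay above all GS and NO values. 1700057H21Rik had 37, 44 and 38 in GS, 147, 130 and 161 in DM and 57, 14 and 27 in NO. It rose by 1.85 ± 0.40 in DM vs GS (adjusted p = 0.017) and differed by −2.34 ± 0.40 in NO vs DM (adjusted p = 0.0055). For D830044D21Rik, with 34, 24 and 24 in GS, 75, 56 and 89 in DM and 48, 20 and 33 in NO, these differences were 1.39 ± 0.35 (adjusted p = 0.036) and −1.16 ± 0.35 (adjusted p = 0.047). The calls in DM vs GS of 1700057H21Rik, Halr1 and D830044D21Rik were lost in 6, 4 and 7 of the 9 fits that left out 1 library, with adjusted p up to 0.074, 0.083 and 0.13. In NO vs DM the call of 1700057H21Rik held in every alternative and that of D830044D21Rik was lost in 8 of those 9 fits (adjusted p up to 0.14, the value without NO replicate 2).

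Trp53cor1, known as lincRNA-p21, was the lincRNA with the largest decrease from GS to DM. It is induced by p53 and lies upstream of Cdkn1a, the gene of the cell cycle inhibitor p21. The normalised counts were 241, 246 and 232 in GS, 69, 86 and 71 in DM and 107, 146 and 105 in NO. No values of the 3 media overlapped, and NO lay between DM and GS. In DM vs GS, Trp53cor1 fell by 1.66 in log2 units (SE 0.20, adjusted p = 0.00055) and by 1.02 in NO vs GS (SE 0.20, adjusted p = 0.0053), and in NO vs DM the log2 fold change was 0.65 ± 0.20 (adjusted p = 0.051). The change in NO vs GS was under 2-fold in 5 of 18 alternatives (a pseudocount of 5, equal totals, and without GS replicate 2, NO replicate 1 or NO replicate 3), and passed the test in all 18.

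2310043M15Rik on chromosome 16 (chr16:93792136-93794901, minus strand) had 686, 868 and 877 normalised counts under GS, 319, 326 and 263 in DM and 458, 543 and 634 in NO. It fell by 1.42 in DM vs GS (SE 0.17, adjusted p = 0.00058). In NO vs GS the log2 fold change was −0.58 ± 0.17 (adjusted p = 0.035, lost in 8 of 18 alternatives, with 0.064 without NO replicate 2) and in NO vs DM 0.84 ± 0.17 (adjusted p = 0.011, held in all 18). It lies inside Dop1b on the other strand and shares exon bases with it. Dop1b had 844, 696 and 688 in GS and 823, 824 and 847 in DM (log2 fold change 0.17 ± 0.13, adjusted p = 0.53). The promoter window of 2310043M15Rik is shown because it is the most abundant lincRNA called in DM vs GS. The letters ACGTG, the core of the hypoxia response element, and their reverse complement overlap in it as CACGTG, printed in capitals.
2310043M15Rik, chr16:93794852-93795151, minus strand: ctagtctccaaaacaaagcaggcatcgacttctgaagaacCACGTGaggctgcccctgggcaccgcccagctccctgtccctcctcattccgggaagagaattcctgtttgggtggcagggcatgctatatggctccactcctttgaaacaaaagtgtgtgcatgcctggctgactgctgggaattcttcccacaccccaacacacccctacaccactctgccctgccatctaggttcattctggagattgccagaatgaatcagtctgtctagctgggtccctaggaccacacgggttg

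1110002J07Rik and Gm26576 start back to back on chromosome 10, with 43 bases between them (1110002J07Rik at chr10:66912489-66920258 on the minus strand and Gm26576 at chr10:66920302-66923599 on the plus strand). 1110002J07Rik had 206, 238 and 251 normalised counts under GS, 74, 73 and 93 in DM and 111, 224 and 173 in NO. Gm26576 had 49, 51 and 57 in GS, 15, 27 and 27 in DM and 43, 52 and 56 in NO. In both, DM lay below GS and NO without overlap. 1110002J07Rik fell by 1.53 in DM vs GS (SE 0.25, adjusted p = 0.0038) and was 1.02 ± 0.25 higher in NO vs DM (adjusted p = 0.022). For Gm26576 the log2 fold change was −1.20 in DM vs GS (SE 0.30, adjusted p = 0.034) and was 1.14 ± 0.30 higher in NO vs DM (adjusted p = 0.028). Gm16938 on chromosome 7 showed the same order, with 73, 78 and 99 in GS, 30, 41 and 26 in DM and 50, 89 and 80 in NO, and log2 fold changes of −1.35 ± 0.29 in DM vs GS (adjusted p = 0.017) and 1.13 ± 0.29 in NO vs DM (adjusted p = 0.027). Against GS in NO, the 3 differed by −0.50 ± 0.25, −0.06 ± 0.30 and −0.22 ± 0.29 (adjusted p = 0.18, 0.91 and 0.64). Without NO replicate 2 none of the 3 passed in NO vs DM (adjusted p = 0.064, 0.066 and 0.081), and in DM vs GS Gm26576 and Gm16938 were lost in 6 and 4 of the 9 fits without 1 library.

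**Figure D2:**
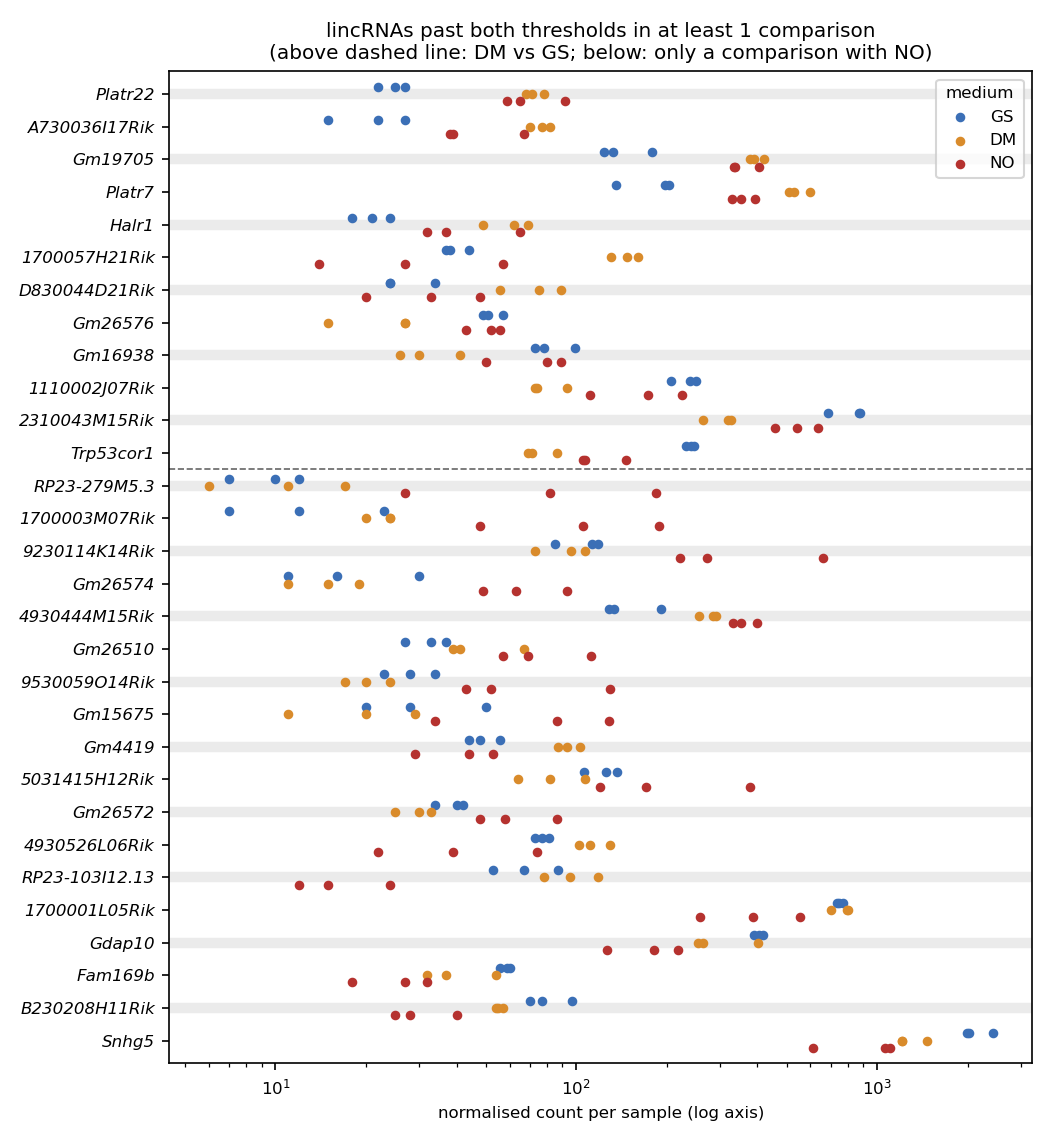
Normalised count (log axis) of the 30 lincRNAs called in at least 1 comparison, with 3 points per medium (blue GS, orange DM, red NO). Above the dashed line are the 12 called in DM vs GS. Below it are those called only in a comparison with NO, where the red points spread most widely.

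Some lincRNAs were higher in NO than in both other media. 9230114K14Rik (chr5:52190672-52279034) had 85, 113 and 118 normalised counts under GS, 96, 107 and 73 in DM and 222, 661 and 272 in NO. Its log2 fold change was 1.70 ± 0.35 over GS (adjusted p = 0.0067) and 1.90 ± 0.35 over DM (adjusted p = 0.0072), and without NO replicate 2 the adjusted p were 0.0060 and 0.0053. 1700003M07Rik on chromosome 4 had 7, 23 and 12 in GS, 20, 24 and 24 in DM and 48, 189 and 105 in NO. That is a log2 fold change of 2.88 ± 0.50 over GS (adjusted p = 0.0029) and 2.08 ± 0.50 over DM (adjusted p = 0.021), the latter lost in 5 of 9 fits without 1 library, namely without DM replicate 1, 2 or 3 or NO replicate 2 or 3 (adjusted p up to 0.069). RP23-279M5.3 on chromosome 8 had 10, 12 and 7 in GS, 17, 11 and 6 in DM and 27, 184 and 82 in NO. Its log2 fold change was 2.85 ± 0.61 over GS (adjusted p = 0.0080) and 2.72 ± 0.61 over DM (adjusted p = 0.016), and 0.022 and 0.045 without NO replicate 2. The value in NO vs DM was lost without DM replicate 3 and without NO replicate 3 (adjusted p up to 0.055). The values of GS and DM overlapped in each of these, and in each NO replicate 2 was the highest of the 9 samples.

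Gm26574 on chromosome 1 had 16, 30 and 11 in GS, 11, 19 and 15 in DM and 49, 93 and 63 in NO, a log2 fold change of 1.86 ± 0.41 over GS (adjusted p = 0.0094) and 2.10 ± 0.41 over DM (adjusted p = 0.0093). It lies inside Ptpn14 on the other strand and shares exon bases with it, and use of the strand in counting was not stated. Ptpn14, which encodes a tyrosine phosphatase, rose in the same libraries, with 1451, 1601 and 1347 in GS, 1452, 1421 and 1355 in DM and 3097, 8745 and 4635 in NO (1.77 ± 0.28 over GS, adjusted p = 0.0018). Without NO replicate 2 the adjusted p of Gm26574 were 0.032 and 0.028. No GS or DM value of Gm26574 was above 30, so it reached the limit for members only through NO. Reads of Gm26574 and Ptpn14 cannot be told apart without the strand.

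9530059O14Rik had 23, 34 and 28 in GS, 24, 20 and 17 in DM and 43, 129 and 52 in NO, with a log2 fold change of 1.67 ± 0.40 over DM (adjusted p = 0.020) and 1.21 ± 0.40 over GS (adjusted p = 0.051). Without NO replicate 2, its highest sample, the value over DM was 1.19 (adjusted p = 0.048), and it was lost in 3 of 17 alternatives (the 6 samples compared, without DM replicate 2 and without DM replicate 3). Of its GS and DM values only that of GS replicate 2 was above 30, so 9530059O14Rik too reached the limit for members through NO. 4930444M15Rik on chromosome 14 had 134, 192 and 128 in GS, 284, 256 and 291 in DM and 354, 331 and 400 in NO, without overlap between media. The log2 fold change in NO vs GS was 1.27 ± 0.19 (adjusted p = 0.0013), and that in DM vs GS was 0.89 ± 0.19 (adjusted p = 0.015, lost in 4 of 9 fits without 1 library, namely without GS replicate 1, GS replicate 3, DM replicate 1 or DM replicate 3). Of the 10 lincRNAs called higher in NO vs GS, NO replicate 2 was the highest of the 9 samples in 6. Of the 11 called higher in NO vs DM, it was so in 8. Without that replicate, 14 lincRNAs were called in NO vs GS (10 higher, 4 lower) in place of 16, and 8 in NO vs DM (4 higher, 4 lower) in place of 17. Without NO replicate 1 these counts were 29 and 28. Without NO replicate 3, or without DM replicate 1, 2 or 3, NO vs DM gave 8, 7, 8 and 8.

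The largest decrease with NO was that of RP23-103I12.13, a transcript without a match in the annotation used. Its normalised counts were 87, 53 and 67 in GS, 78, 95 and 118 in DM and 15, 24 and 12 in NO, and every NO value lay below every other value. It fell by 1.99 in NO vs GS (SE 0.32, adjusted p = 0.0019) and fell by 2.48 in NO vs DM (SE 0.32, adjusted p = 0.0020), and both held in all 18 alternatives. Gdap10 had 405, 391 and 418 in GS, 264, 402 and 253 in DM and 218, 127 and 182 in NO, and fell by 1.23 in NO vs GS (SE 0.23, adjusted p = 0.0041). B230208H11Rik on chromosome 10 had 97, 77 and 70 in GS, 57, 55 and 54 in DM and 40, 28 and 25 in NO, without overlap, and fell by 1.38 in NO vs GS (SE 0.26, adjusted p = 0.0045). Fam169b, which the later annotation classes as protein coding, had 60, 59 and 56 in GS, 54, 32 and 37 in DM and 32, 18 and 27 in NO, and fell by 1.19 in NO vs GS (SE 0.31, adjusted p = 0.019, lost without GS replicate 1, 2 or 3 or NO replicate 2, up to 0.063).

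Some lincRNAs were lower in NO than in DM without a call against GS. 1700001L05Rik was the most abundant of them, with 733, 769 and 748 normalised counts under GS, 802, 796 and 704 in DM and 555, 258 and 387 in NO. It fell by 1.00 in NO vs DM (SE 0.22, adjusted p = 0.016) and by 0.97 in NO vs GS (SE 0.22, adjusted p = 0.011). Gm4419 had 56, 44 and 48 in GS, 87, 93 and 103 in DM and 53, 29 and 44 in NO, and fell by 1.19 in NO vs DM (SE 0.27, adjusted p = 0.016). 4930526L06Rik had 73, 81 and 77 in GS, 129, 102 and 111 in DM and 74, 22 and 39 in NO, and fell by 1.48 (SE 0.36, adjusted p = 0.021). In all of these NO replicate 2 was the lowest of the 9 samples, and without it the log2 fold changes were −0.72, −0.95 and −1.06 (adjusted p = 0.023, 0.037 and 0.041), so the first and second were under 2-fold. By the adjusted p, the 3 were lost in 2, 2 and 4 of the 9 fits without 1 library (adjusted p up to 0.054, 0.054 and 0.073), which always included the fit without DM replicate 2. With replicates treated as pairs, 2 of the 17 calls in NO vs DM were lost, and both are named for this reason. Unlike the lincRNAs above, both were higher in NO. Gm26572 rose by 1.07 ± 0.29 (adjusted p = 0.032, with 0.053 under the pairing and 0.10 without NO replicate 2) and was lost in 8 of 17 alternatives. 5031415H12Rik rose by 1.25 ± 0.36 (adjusted p = 0.040, with 0.051 under the pairing and 0.099 without NO replicate 2) and was lost in 13 of 18.

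Of the role lists, the lincRNAs that carry snoRNAs had the most members that passed in 1 direction, all in NO vs GS. SnoRNAs guide the modification of ribosomal and other RNAs and are cut from the introns of such hosts, while the spliced host RNA is often short-lived. By annotation 11 lincRNAs had a snoRNA or related gene inside their span on the same strand, and 8 were hosts by name. The lists together hold 13 lincRNAs, because Snhg1 and Snhg4 had no match in the annotation used. The identifier of Snhg7 is that of the snoRNA Snora43 in this annotation, so its row may hold reads of either. All 13 had a negative log2 fold change in NO vs GS, with a median of −0.76, and 7 of 13 passed the test, 1 of them at the 2-fold level. The background share of genes that were lower at this level was 6.64%. In DM vs GS the median was −0.35, 12 of 13 were negative and none passed the test, and in NO vs DM the median was −0.33, 12 of 13 were negative and none passed.

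Snhg5 was the snoRNA host called. It lies on chromosome 9 (chr9:88521050-88522929, minus strand), contains Snord50a and Snord50b, and had 1989, 2017 and 2424 normalised counts under GS, 1461, 1211 and 1212 in DM and 1102, 612 and 1066 in NO. The 3 media did not overlap. Snhg5 fell by 1.25 in NO vs GS (SE 0.21, adjusted p = 0.0023), and without NO replicate 2 by less than the 2-fold limit (adjusted p = 0.0013), so no snoRNA host was called by both thresholds in that fit. In DM vs GS the log2 fold change was −0.73 ± 0.21 (adjusted p = 0.064). Its promoter window is shown as that of the most abundant lincRNA called in any comparison, with the letters TATAAA 23 bases before the RefSeq start and CACGT, the reverse complement of ACGTG, in capitals.
Snhg5, chr9:88522848-88523147, minus strand: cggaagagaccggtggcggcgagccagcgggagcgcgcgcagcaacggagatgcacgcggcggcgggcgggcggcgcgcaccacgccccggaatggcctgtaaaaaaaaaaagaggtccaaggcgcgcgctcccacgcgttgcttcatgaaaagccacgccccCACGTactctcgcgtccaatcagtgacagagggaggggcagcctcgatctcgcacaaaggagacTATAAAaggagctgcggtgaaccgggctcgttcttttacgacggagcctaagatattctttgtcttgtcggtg

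Snhg1, the host of several C/D box snoRNAs, had 2054, 1954 and 2446 in GS, 1663, 1580 and 1342 in DM and 1315, 1208 and 1283 in NO. The media again did not overlap, with the lowest values in NO, and Snhg1 fell by 0.76 in NO vs GS (SE 0.14, adjusted p = 0.0034). Snhg4 had 732, 730 and 802 in GS, 582, 557 and 499 in DM and 517, 239 and 451 in NO, and fell by 0.98 (SE 0.24, adjusted p = 0.015). Snhg6, host of Snord87, had 1315, 1007 and 1068 in GS, 831, 920 and 984 in DM and 806, 424 and 674 in NO, and fell by 0.87 (SE 0.21, adjusted p = 0.015). Epb41l4aos fell by 0.76 (SE 0.16, adjusted p = 0.0086), from 374, 451 and 409 in GS to 247, 212 and 272 in NO, with 304, 362 and 292 in DM. Snhg12, host of Snora16a, Snora44, Snora61 and Snord99, had 1334, 1341 and 1537 in GS, 1188, 1182 and 936 in DM and 1017, 855 and 1087 in NO, and fell by 0.51 (SE 0.15, adjusted p = 0.031, lost in 7 of 18 alternatives). 2700038G22Rik, which contains Snord93, had 222, 221 and 213 in GS, 227, 197 and 195 in DM and 182, 79 and 123 in NO, and fell by 0.85 (SE 0.26, adjusted p = 0.039, lost in 10 of 18). Without NO replicate 2, Snhg12 and 2700038G22Rik did not pass (adjusted p = 0.088 and 0.097), and Snhg4 fell by 0.64 (adjusted p = 0.012). The hosts Snhg7 and Snhg20 did not pass in any comparison. Their ranges were 636 to 909 and 323 to 483 over the 9 samples.

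In NO vs GS all 13 hosts stayed negative with quantile normalisation and with equal totals, where 8 and 5 passed. Without NO replicate 2, 12 of 13 were negative and 5 passed in NO vs GS, and 3 passed in DM vs GS. The snoRNA genes of Snhg1 and Snhg4 could not be placed, as these 2 hosts had no match in the annotation used. Inside the other hosts, the 4 snoRNA genes with a mean of at least 30 did not pass in NO vs GS. None of these lies in Snhg5. Snora16a, Snord87, Gm23639 (in Epb41l4aos) and Snord93 differed in NO vs GS by 0.23 ± 0.29, −0.01 ± 0.51, 0.31 ± 0.16 and 0.87 ± 0.43 (adjusted p = 0.62, 0.99, 0.18 and 0.18). In NO vs DM Gm23639 rose by 0.70 ± 0.16 (adjusted p = 0.016).

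**Figure D3:**
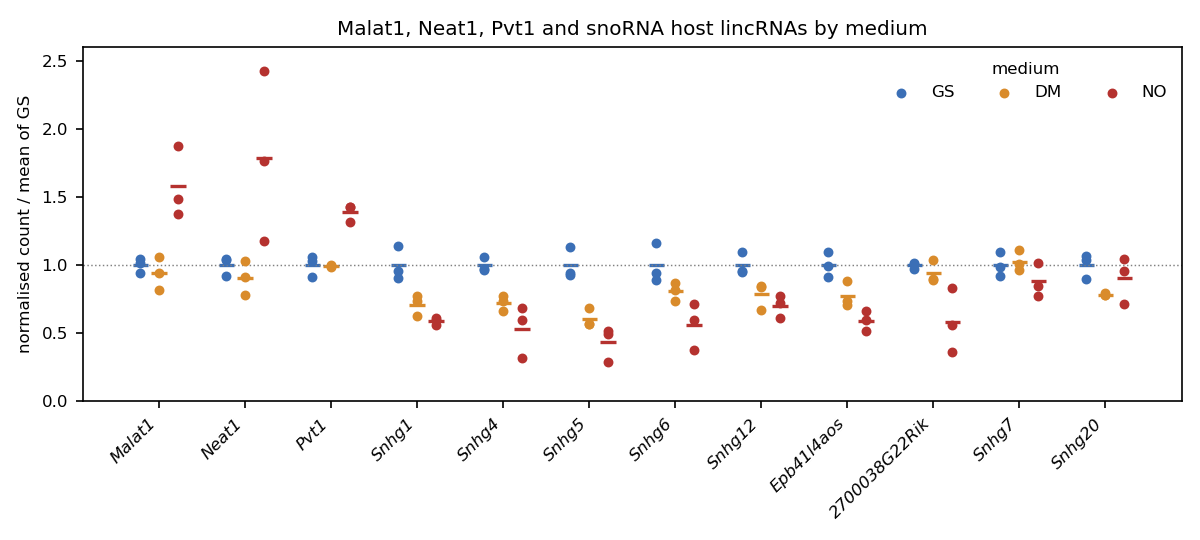
Normalised count divided by the mean of the GS replicates, for Malat1, Neat1, Pvt1 and 9 snoRNA host lincRNAs, with points for replicates and short bars for the mean of each medium. NO points of Malat1, Neat1 and Pvt1 lie above 1, and those of Snhg1, Snhg4, Snhg5, Snhg6, Snhg12, Epb41l4aos and 2700038G22Rik below 1.

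Malat1 and Neat1, neighbours on chromosome 19 that make up parts of nuclear speckles and paraspeckles, were both higher in NO. Malat1 had 78252, 83986 and 86857 normalised counts under GS, 78191, 87722 and 68123 in DM and 114171, 155297 and 123343 in NO. The log2 fold change was 0.65 ± 0.19 in NO vs GS (adjusted p = 0.035) and 0.74 ± 0.19 in NO vs DM (adjusted p = 0.027). Neat1 had 3771, 4298 and 4244 in GS, 3202, 3740 and 4230 in DM and 4821, 9952 and 7246 in NO, with log2 fold changes of 0.78 ± 0.22 (adjusted p = 0.030) and 0.93 ± 0.22 (adjusted p = 0.020). In both, every NO value lay above every value of GS and DM, and GS and DM overlapped. Without NO replicate 2 the adjusted p in NO vs GS were 0.083 for Malat1 and 0.081 for Neat1, and in NO vs DM 0.064 and 0.046. With quantile normalisation Malat1 did not pass (adjusted p = 0.24 and 0.15) and Neat1 did (0.018 and 0.014). In NO vs GS, 8 of 18 alternatives lost Malat1 and 6 lost Neat1, each including the fits without GS replicate 1, 2 or 3 and without NO replicate 3 (adjusted p up to 0.24 and 0.099). Of 12 genes of paraspeckle proteins, none passed the test in DM vs GS or NO vs DM, and 1, Rbm14, passed in NO vs GS and fell by 0.84 (SE 0.26, adjusted p = 0.044). Of all genes, 2.32%, 6.64% and 5.24% passed as lower in DM vs GS, NO vs GS and NO vs DM. As higher, 4.37%, 13.4% and 9.01% did.

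Xist, which coats and silences the X chromosome, and Ftx, a lincRNA of the same locus that promotes Xist expression, had their lowest means in DM. Xist had 323, 468 and 545 in GS, 281, 355 and 260 in DM and 473, 500 and 404 in NO, and no comparison passed the test. Its log2 fold change was −0.55 ± 0.21 in DM vs GS (adjusted p = 0.15) and 0.63 ± 0.21 in NO vs DM (adjusted p = 0.064). Ftx had 149, 165 and 214 in GS, 115, 111 and 95 in DM and 149, 245 and 178 in NO, and was 0.80 ± 0.23 higher in NO vs DM (adjusted p = 0.038, with 0.051 under the pairing of replicates and 0.12 without NO replicate 2). Xist shares exon bases with Tsix on the other strand, and reads of the pair cannot be told apart without the strand. Of 10 genes of proteins through which Xist silences, 2 passed in NO vs GS, both lower, beside 6.64% of all genes, and 1 passed lower in NO vs DM, beside 5.24%. These were Lbr (−0.51 ± 0.16, adjusted p = 0.048 in NO vs GS) and Wtap (−0.72 ± 0.21, adjusted p = 0.030).

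Of 16 lincRNAs listed as tied to pluripotency, 14 of them Platr transcripts, 3 passed the test as higher and none as lower in DM vs GS (Platr7, Platr22 and Platr17), beside 4.37% and 2.32% of all genes. In NO vs GS 2 were higher and 2 lower, beside 13.4% and 6.64%, and in NO vs DM none was higher and 2 were lower, beside 9.01% and 5.24%. Lncenc1, a lincRNA of naive mESC whose nearest coding gene is Enc1, was the most abundant, with 5920, 6313 and 6399 normalised counts under GS, 5378, 4703 and 4830 in DM and 4766, 3461 and 4268 in NO. Its values in NO lay below those in GS and it fell by 0.59 in NO vs GS (SE 0.14, adjusted p = 0.014), with an adjusted p of 0.062 under quantile normalisation and a loss also without GS replicate 2 or 3. Platr3 had 259, 315 and 327 in GS, 218, 219 and 279 in DM and 203, 121 and 230 in NO, and fell by 0.74 in NO vs GS (SE 0.24, adjusted p = 0.047, lost in 10 of 18 alternatives, with 0.13 without NO replicate 2). Platr17 had 90, 101 and 73 in GS, 145, 151 and 176 in DM and 118, 139 and 122 in NO, and rose by 0.84 ± 0.20 in DM vs GS (adjusted p = 0.028, lost in 8 of 18). Platr11, whose nearest coding gene is Eomes, had 170, 185 and 157 in GS, 183, 209 and 222 in DM and 89, 164 and 99 in NO, and fell by 0.85 in NO vs DM (SE 0.23, adjusted p = 0.034, lost in 9 of 18). Platr4, Platr6, Platr12, Platr20, Platr23, Platr25, Platr27, Platr28, Platr31 and Tunar did not pass in any comparison, with log2 fold changes between −0.60 and 0.69.

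Pvt1, a lincRNA linked to p53 that starts 52595 bases from the start of Myc on the same strand, had 347, 394 and 404 in GS, 378, 382 and 377 in DM and 502, 543 and 545 in NO. NO lay above both other media in all replicates, with log2 fold changes of 0.47 ± 0.13 over GS (adjusted p = 0.029) and 0.48 ± 0.13 over DM (adjusted p = 0.036). With the pairing of replicates the adjusted p were 0.051 and 0.059, and without NO replicate 2 they were 0.057 and 0.076. Bvht, a lincRNA required for cardiovascular commitment of mESC, had 152, 156 and 152 in GS, 81, 111 and 105 in DM and 126, 184 and 173 in NO. It was 0.69 ± 0.21 higher in NO vs DM (adjusted p = 0.049, lost in 14 of 18 alternatives, 0.053 with the pairing and 0.14 without NO replicate 2). Crnde ranged from 22 to 44 in the 9 samples, and 1700020I14Rik, known as Cyrano, which directs the decay of a microRNA, from 1118 to 1760, and neither passed in any comparison.

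By annotation 10 lincRNAs contained a microRNA gene on the same strand. None of them passed in DM vs GS (4.37% of all genes higher and 2.32% lower) or NO vs GS (13.4% and 6.64%). Ftx alone passed in NO vs DM, as higher, beside 9.01% of all genes. Mir17hg, which holds Mir17, Mir18, Mir19a, Mir20a, Mir19b-1 and Mir92-1, had 531, 693 and 806 in GS, 826, 745 and 542 in DM and 693, 344 and 531 in NO. The media overlapped and the log2 fold change was −0.41 ± 0.26 in NO vs GS (adjusted p = 0.28). Mir124a-1hg ranged from 131 to 257 and Mir9-3hg from 13 to 60.

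Position relative to coding genes was not used to choose the lincRNAs. The median distance from the start of a lincRNA to the nearest start of a protein-coding gene was 14230 bases, 50 lincRNAs started within 1 kb of one, and 30 of these pointed away from it on the other strand. Among these 30 divergent lincRNAs none passed in DM vs GS, 1 passed as higher in NO vs GS, and 1 was higher and 1 lower in NO vs DM. The shares of all genes that passed as higher were 4.37%, 13.4% and 9.01% in these comparisons. Those that passed as lower were 2.32%, 6.64% and 5.24%. Of the 12, 16 and 17 lincRNAs called in the 3 comparisons, the nearest coding gene had been tested for 11, 14 and 12, and it was itself called in 1, 2 and 1, in the direction of the lincRNA each time. Over all 215 lincRNAs with a tested neighbour, it was called for 10, 17 and 11, and had the sign of the lincRNA in 6, 12 and 4 of these. Of all genes, 2.94%, 10.1% and 6.78% were called higher and 1.27%, 1.64% and 1.77% lower. The pairs in NO vs GS include Gdap10 and Nampt, which lie in the same place on the same strand.

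Cdkn1a, 11797 bases from the start of Trp53cor1, had 3839, 3758 and 3288 normalised counts under GS, 1462, 1487 and 1976 in DM and 2535, 4859 and 3663 in NO. It fell by 1.15 in DM vs GS (SE 0.21, adjusted p = 0.0071), as Trp53cor1 did, and in NO it differed from GS by −0.02 ± 0.21 (adjusted p = 0.95), where Trp53cor1 was lower. In NO vs DM it was 1.13 ± 0.21 higher (adjusted p = 0.0080). Nampt, which encodes the enzyme that limits NAD salvage, fell together with Gdap10 in NO vs GS, by 1.27 (SE 0.19, adjusted p = 0.0012), from 4637, 4205 and 5117 in GS to 2445, 1399 and 2064 in NO, with 3875, 3931 and 3545 in DM. Gdap10 lies inside Nampt on the same strand, so unspliced Nampt RNA and Gdap10 RNA cannot be told apart. Slc20a1, a phosphate transporter gene 20205 bases from A730036I17Rik on the same strand, had 3114, 3116 and 3190 in GS, 6358, 5699 and 6317 in DM and 6304, 6731 and 6301 in NO. Its log2 fold change was 0.96 ± 0.12 in DM (adjusted p = 0.00055) and 1.04 ± 0.12 in NO (adjusted p = 0.00049) over GS.

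Topaz1, a germ cell gene 174847 bases from 9530059O14Rik, had 3, 5 and 7 in GS, 6, 6 and 7 in DM and 21, 49 and 33 in NO, and was higher in NO than in DM (2.19 ± 0.45, adjusted p = 0.011). Dhx15, an RNA helicase gene that starts 158 bases from 9230114K14Rik in the other direction, moved the opposite way to this lincRNA in NO vs GS. It had 7175, 7020 and 8196 in GS, 7214, 5861 and 6072 in DM and 5603, 4259 and 4956 in NO, and fell by 0.60 (SE 0.15, adjusted p = 0.015). Jmjd1c, the nearest coding gene of 1110002J07Rik and Gm26576, differed by 0.28 ± 0.14 in DM vs GS (adjusted p = 0.27), and Ckap4, that of Platr7, by 0.33 ± 0.14 (adjusted p = 0.22). Among the others, Capn5, nearest to Gm16938, was lower in NO vs GS (−1.04 ± 0.32, adjusted p = 0.041), and Smyd2, nearest to Gm26574, was higher in NO vs DM (0.91 ± 0.22, adjusted p = 0.020). Zfp949, Arfgap3, Morc3, Serp2, Adgrb2, Ankrd28, Ywhaq, Stx11 and N4bp1 did not pass in any comparison, and Ms4a13, Tas2r134 and Pgpep1l were not tested.

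**Figure D4:**
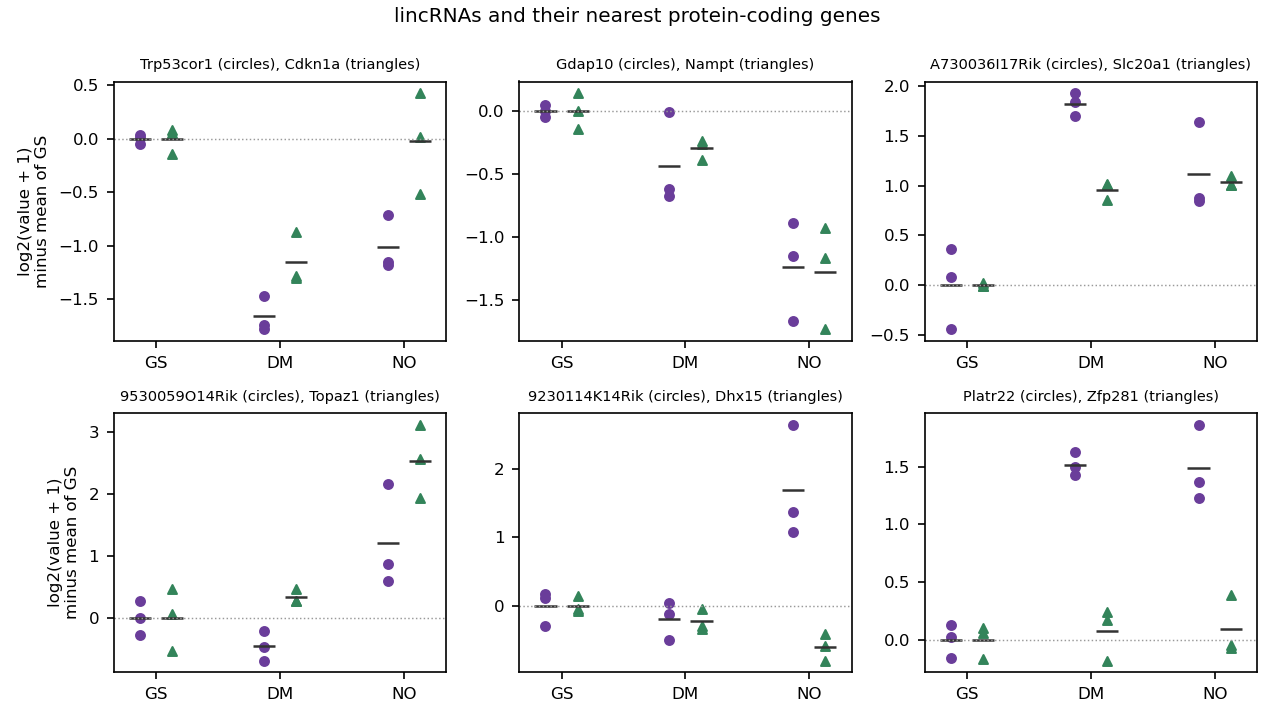
Log2(value + 1) minus its mean in GS for 6 lincRNAs (circles) and their nearest protein-coding genes (triangles), with a bar at the mean of each medium and an own vertical scale in each panel. Cdkn1a and Trp53cor1 both lie below 0 in DM, Gdap10 and Nampt both lie below 0 in NO, and Zfp281 stays near 0 where Platr22 lies above 1.

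Other genes that process or degrade RNAs were also listed. None of the 18 nuclear RNA exosome genes tested, 14 nonsense-mediated decay genes, 4 genes of NORAD-binding proteins and 2 Microprocessor genes passed in DM vs GS. For NO vs GS, 4 exosome genes (Exosc8, Mphosph6, Dis3 and Zcchc7) and 2 decay genes (Smg1 and Rbm8a) passed, all lower and under 2-fold, beside the 6.64% of all genes that were lower. The largest of these falls were those of Zcchc7 (−0.90 ± 0.19, adjusted p = 0.0076) and Mphosph6 (−0.81 ± 0.17, adjusted p = 0.0072). Rbm8a, of the exon junction complex, had 3547, 3303 and 2905 in GS and 2388, 1715 and 1781 in NO. In NO vs DM Exosc2 and Rbm8a passed as lower, beside 5.24% of all genes. The genes of NORAD-binding proteins and Microprocessor did not pass in any comparison.

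Promoter windows of 106 lincRNAs were found by name in the RefSeq table. The letters CACCTG were in 21.7% of them and in 20.2% of all 32851 windows, on either strand. ACGTG was in 30.2% against 19.6%, TATAAA in 12.3% against 13.6%, the TCF/LEF letters CTTTGAT in 0.943% against 3.73%, and the octamer letters ATGCAAAT in 2.83% against 1.74%. Among the 20 windows of called lincRNAs, 5 held CACCTG and 5 held ACGTG. The p53 response element was in none of the 106 windows and in 24 of all 32851 (0.0731%). At so low a share 106 windows are too few for its absence to say anything about lincRNAs. Trp53cor1 had no window in the table.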

How the data were processed

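Total RNA-seq libraries of mESC in GS, DM and NO (3 each) were analysed. Media and replicate numbers came from the labels. Per the study's methods, the authors removed ribosomal RNA, read the libraries on an Ion Torrent Proton, aligned to GRCm38 with STAR (2.4.0a), counted exonic reads with featureCounts (1.4.5-p1) and normalised with DESeq2. The deposited values are therefore a score, namely counts divided by size factors and rounded, and no count model was fitted. Use of the strand was not stated, and 124 of 244 lincRNAs share exon bases with another gene.

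Values were analysed as log2(value + 1) with limma 3.58.1 in R 4.3.3 (moderated tests with trend, 9 samples, 3 groups, two-sided, Benjamini-Hochberg adjustment over genes with a mean above 5). The fit was tested on simulated data with 200 changed genes. Fold changes of low genes are understated by the pseudocount of 1. Per the methods RNA of each sample came from its own dish. Whether these dishes were separate experiments is stated only for the study in general, so p-values measure the spread between dishes. The main fit did not pair replicates. Deviations from group means correlated between NO and DM replicates of the same number (0.159, 0.167 and 0.296). They did not between GS and DM (−0.178, 0.022 and −0.232) or GS and NO (−0.046, 0.050 and −0.106). Pairing was an alternative fit with a block for each replicate number over all 9 samples, GS included. Values with pairing in comparisons with GS thus rest on pairs that these correlations do not show.

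LincRNAs were named if among the up to 6 called with the smallest adjusted p per comparison and direction, with non-overlapping groups, if in a role list, or if among the 8 highest per kb, and with the nearest coding gene of the first kind. Names mostly follow GENCODE M21 by identifier. The lincRNAs, lists and alternatives were chosen with earlier results of these data known. The column with the sum over samples was not used. Alternatives comprised the 6 samples compared, a replicate block, other filters, pseudocounts, scalings and weights, and leaving out each replicate. The nearest coding gene of 1 named lincRNA is not reported here.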

Additional observations from a re-analysis of the deposited data

How the results depend on the processing

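Of 1352 refits of the 76 results of lincRNAs that passed the test, 1018 stayed under an adjusted p of 0.05, 334 did not and none reversed. By both thresholds, 7 of 12 calls in DM vs GS, 10 of 16 in NO vs GS and 4 of 17 in NO vs DM held in every alternative. The calls in DM vs GS (12) ranged from 8 to 14 when 1 replicate was left out, those in NO vs GS (16) from 13 to 29 and those in NO vs DM (17) from 7 to 28. LincRNAs differing among the media (47) ranged from 26 to 64. Called snoRNA hosts by annotation ranged from 0 to 3 in NO vs GS (1) and 0 to 1 in NO vs DM (0), miRNA hosts from 0 to 1 in NO vs GS (0), and partner genes from 0 to 2 in NO vs GS (0). Quantile normalisation gave 32 calls and 3 snoRNA hosts in NO vs GS, with a median of −0.48, and in NO vs DM a median of −0.33. Equal totals, a choice for the medians made after seeing the data, gave a median of −0.0039 in NO vs GS. Without a minimum fold, NO vs GS gave 33 lincRNAs, 5 snoRNA hosts and 9 partner genes, and NO vs DM gave 29, with 1 miRNA host and 3 partner genes. In NO vs DM, fitting the 6 samples compared gave 7 and a mean of at least 50 gave 10. The filter at 50 left lincRNAs with a lower mean untested, called ones such as RP23-279M5.3 and Gm26574 among them. Its count is therefore not one of calls that failed the test. The replicate block gave 12, 17 and 15 calls and changed no other call than the 2 lost in NO vs DM and the gain of 9530059O14Rik in NO vs GS (adjusted p = 0.049 in limma). The cause of these shifts was not tested. The values hold no true counts, so depth enters only as an estimate.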
